A study of Mus musculus with 60 samples.

Results

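Kcnmb4, Scn10a, Fxyd1 and Ano10 are mouse genes for proteins that carry ions across membranes or adjust the proteins that do. They were chosen by gene symbol because earlier results of these same arrays showed them at different levels in different lines, and they are 4 of 8107 genes that could be tested. The line means and differences of these 4 genes are therefore a description, with no test. Each value is a log2 ratio of culture RNA over a common reference made from IM2 cells, so it compares 1 gene between lines and gives no absolute level. Every size on this scale, and every fold, holds only if the deposited log ratios have base 10.

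The series compared 5 mouse cell lines on 2-colour arrays, in a study whose labels name oculopharyngeal muscular dystrophy (OPMD), a human muscle disease caused by an altered PABPN1 protein. D7E was transfected with mutant Pabpn1 at a level called high, D7F with mutant Pabpn1 at a level called low, WTA with wild-type Pabpn1 at a high level and WTD with wild-type Pabpn1 at a low level. IM2 was not transfected, and its RNA was also the reference on every array. Each line was grown as 3 cultures, and each culture was hybridised on 2 array parts with both dyes, which makes 4 arrays per culture and 60 in all. The labels give neither the mutation, nor the promoter of the transgene, nor the tissue of the lines, nor whether a line is 1 clone. Each combination of genotype and level is 1 line, so a difference between lines cannot be told apart from a difference between genotypes or levels. Nothing states how separate the cultures were, so every error here is the spread between cultures of 1 line, which may be technical. The same 3 IM2 cultures enter every difference from IM2.

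The BK channel is a potassium channel opened by voltage and by calcium, and its auxiliary beta subunits, among them the Kcnmb4 product, change how fast and how easily it opens. Scn10a encodes the pore of Nav1.8, a voltage-gated sodium channel best known from pain-sensing neurons. Fxyd1 encodes phospholemman, a small membrane protein of heart and skeletal muscle that binds the sodium pump (Na,K-ATPase) and slows it until it is phosphorylated. Ano10 belongs to the anoctamins, a family of calcium-regulated chloride channels and lipid scramblases, and its product (TMEM16K) lies mainly in the endoplasmic reticulum.

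Some libraries stood apart. On part I of the array, 82.4% to 99.9% of the rows of an array were filled and 0.721% to 28.7% of the filled values lay at the limit of the deposited scale. On part II these ranges were 46.0% to 99.4% and 2.76% to 33.2%. By these measures 9 arrays were poor, 5 of them IM2 arrays, and both part I arrays of IM2 culture 1 were among them. Pabpn1 itself averaged 1.61 ± 0.14 in D7E, 0.92 ± 0.11 in D7F, 2.19 ± 0.29 in WTA, 1.43 ± 0.07 in WTD and -0.18 ± 0.06 in IM2 (SD, n = 3 each), and was above 0 on 24 of 24 arrays of transfected cultures on part I. For WTA culture 3 on part I the array titles and the channel names gave opposite dyes, and the channel names were followed. For D7F culture 1, 1 array on part I is described as high, against its title, and the title was followed.

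The start regions of Kcnmb4 and Scn10a are shown because these genes shared their highest transfected lines, D7E and WTD. Promoter windows were found for 4 of the 4 genes in a table from RefSeq on build GRCm38.p6. These 2 run from 250 bases before to 50 bases after the start site of that table, 5′ to 3′ on the minus strand. The gene records reach 336 bases beyond that site for Kcnmb4 and 290 bases beyond it for Scn10a, so the windows lie inside the records. The Kcnmb4 window is chr10:116473474-116473773 and the Scn10a window is chr9:119718983-119719282. Capitals mark GGGCGG, the core of the GC box, or CANNTG, the E-box, each searched on both strands.
Kcnmb4: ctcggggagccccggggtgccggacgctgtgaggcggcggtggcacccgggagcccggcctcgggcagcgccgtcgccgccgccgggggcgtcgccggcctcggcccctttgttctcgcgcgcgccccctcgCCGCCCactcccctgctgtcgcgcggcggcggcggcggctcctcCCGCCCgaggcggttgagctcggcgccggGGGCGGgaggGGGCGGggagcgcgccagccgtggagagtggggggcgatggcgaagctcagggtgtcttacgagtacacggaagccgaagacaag
Scn10a: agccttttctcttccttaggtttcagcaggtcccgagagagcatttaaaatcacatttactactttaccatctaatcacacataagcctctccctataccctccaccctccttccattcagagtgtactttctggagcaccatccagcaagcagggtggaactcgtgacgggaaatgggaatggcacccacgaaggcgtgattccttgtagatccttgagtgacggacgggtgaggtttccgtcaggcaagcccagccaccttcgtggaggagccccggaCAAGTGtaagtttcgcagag
The Kcnmb4 window held 4 GGGCGG and no CANNTG, and its GC content of 79% was above that of 98.6% of promoters. The Scn10a window held 1 CANNTG and no GGGCGG, with a GC content of 51.7%, against a median of 52.7% over 32851 promoters of the same length. Of those promoters, 35.7% held GGGCGG and 72.3% held CANNTG. No match of the different motifs overlapped in these windows. A match is a description of letters, and these windows shared neither motif.

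Kcnmb4 (NM_021452) lies at chr10:116417861-116473859 and was read by 2 rows of part I with identical values, counted once. It differed most between lines among the 4 genes: D7E was highest, WTD next and D7F after it, while WTA and IM2 lay lowest and overlapped. The log2 ratios of the 3 cultures were 1.98, 2.35 and 2.85 in D7E. They were 0.74, 1.05 and 0.55 in D7F, -0.19, 0.25 and -0.35 in WTA and 1.46, 1.11 and 1.96 in WTD, against -0.19, -0.23 and -0.30 in IM2. With both dyes averaged, every D7E culture was above every other culture, though the lowest of D7E (1.98) and the highest of WTD (1.96) were close. Every WTD culture was likewise above every D7F culture. The line means were 2.39 ± 0.43 in D7E, 0.78 ± 0.25 in D7F, -0.10 ± 0.31 in WTA, 1.51 ± 0.43 in WTD and -0.24 ± 0.06 in IM2 (SD, n = 3 each).

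Relative to IM2, Kcnmb4 was 6.20-fold higher in D7E (2.63 on the log2 scale, SE 0.25), 3.37-fold higher in WTD (1.75) and 2.03-fold higher in D7F (1.02). WTA differed from IM2 by 0.14, which is less than the spread between cultures, and this difference became -0.34 when the sign of the IM2 arrays was turned. That alternative was run because no gene fixes the direction of IM2 arrays, and it gave 2.15 in D7E, 0.54 in D7F and 1.27 in WTD. At the level called high the mutant line exceeded the wild-type line 5.61-fold (2.49), whereas at the level called low the mutant line lay below it (-0.73). The lines of 1 level were not equal in measured Pabpn1. It averaged 1.61 in D7E and 2.19 in WTA, the high lines, and 0.92 in D7F and 1.43 in WTD, the low lines. The order of high and low was likewise opposite in the 2 genotypes: D7E exceeded D7F by 1.61 and WTA lay below WTD by as much (-1.61). In each of these comparisons the cultures did not overlap. High against low was opposite, with no overlap in either genotype, in 6.56% of the 4910 genes measured in all 15 cultures.

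Scn10a (NM_009134) lies at chr9:119608456-119719322 and was also read by 2 identical rows of part I. It was high in D7E and WTD and low in D7F and WTA, with IM2 between them. Its log2 ratios were 1.26, 1.44 and 1.20 in D7E and -0.56, -0.81 and -0.40 in D7F. They were -0.72, -0.76 and -0.81 in WTA and 0.63, 0.84 and 1.08 in WTD, against 0.80, -0.02 and 0.09 in IM2. With both dyes averaged, all D7E cultures were above all WTD cultures, D7F and WTA overlapped, and IM2 overlapped with WTD only through culture 1. The line means were 1.30 ± 0.13 in D7E, -0.59 ± 0.20 in D7F, -0.76 ± 0.05 in WTA, 0.85 ± 0.23 in WTD and 0.29 ± 0.44 in IM2 (SD, n = 3 each).

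The IM2 mean of Scn10a rests partly on culture 1, whose 2 part I arrays were among the poor ones and read 0.05 with the culture in Cy3 and 1.55 with it in Cy5. Without that culture the IM2 mean was 0.04. Relative to all 3 IM2 cultures, Scn10a was 2.01-fold higher in D7E (1.01, SE 0.20), and differed by 0.56 in WTD, -0.88 in D7F and -1.05 in WTA. Without IM2 culture 1 these differences were 1.26 in D7E, 0.81 in WTD, -0.63 in D7F and -0.80 in WTA, with the same signs. With IM2 signs turned they were 1.59 in D7E, 1.14 in WTD, -0.30 in D7F and -0.47 in WTA. Between transfected lines no IM2 value enters: D7E exceeded WTA 4.17-fold (2.06) and D7F lay below WTD at 0.368-fold (-1.44). D7E exceeded D7F 3.71-fold (1.89), whereas WTA lay below WTD at 0.327-fold (-1.61).

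Kcnmb4 and Scn10a thus shared the same pair of higher transfected lines. For Kcnmb4 the mean of the 6 WTD and D7E cultures was 1.95 and that of the 6 WTA and D7F cultures 0.34. For Scn10a these means were 1.07 and -0.68. Both genes had no overlap between the 2 sets of cultures, as did 3.4% of the 4910 genes. They differed in where IM2 stood: at the bottom for Kcnmb4, and in the middle for Scn10a. Kcnmb4 in WTA was close to IM2, whereas Scn10a in WTA was at 0.482-fold of IM2.

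**Figure D1:**
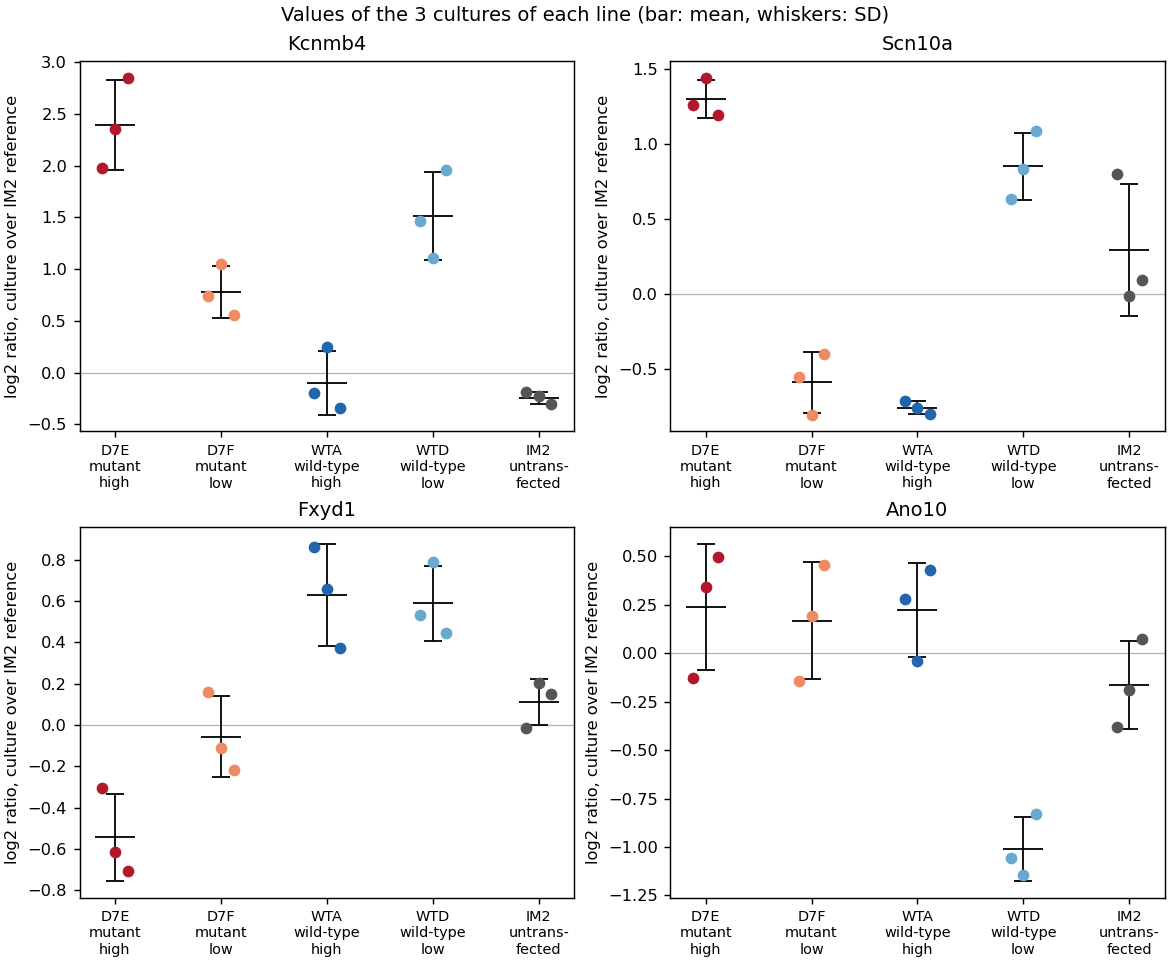
Log2 ratio of culture over IM2 reference (vertical axis) for Kcnmb4, Scn10a, Fxyd1 and Ano10 in the 5 lines (horizontal axis); points are the 3 cultures of a line, the long bar is their mean and the whiskers are the SD. Kcnmb4 and Scn10a are highest in D7E and next in WTD, Fxyd1 is highest in both wild-type lines, and Ano10 stands apart in WTD alone, with a mean of -1.01.

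Fxyd1 (NM_019503) lies at chr7:31051678-31055873 and was read by 2 identical rows of part I. It was the one gene of the 4 that separated the mutant lines from the wild-type lines. Its log2 ratios were -0.30, -0.61 and -0.71 in D7E and 0.16, -0.11 and -0.22 in D7F. They were 0.86, 0.66 and 0.37 in WTA and 0.53, 0.79 and 0.44 in WTD, against -0.01, 0.20 and 0.15 in IM2. Every mutant culture was below every wild-type culture, and WTA and WTD overlapped. D7F overlapped with IM2, and D7E was below both.

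The line means of Fxyd1 were -0.54 ± 0.21 in D7E, -0.06 ± 0.20 in D7F, 0.63 ± 0.25 in WTA, 0.59 ± 0.18 in WTD and 0.11 ± 0.11 in IM2 (SD, n = 3 each). The 6 mutant cultures averaged -0.30 and the 6 wild-type cultures 0.61, a difference of -0.91. Such a separation of all mutant from all wild-type cultures, in either direction, was found for 0.55% of the 4910 genes. Against WTA, D7E was at 0.444-fold (-1.17), and against WTD, D7F was at 0.640-fold (-0.64). The differences from IM2 were -0.66 in D7E, -0.17 in D7F, 0.52 in WTA and 0.48 in WTD (SE 0.16 each). The D7F difference lay within the spread of the cultures and became 0.06 when the sign of the IM2 arrays was turned. The other differences moved too in that setting, to -0.43 in D7E, 0.74 in WTA and 0.70 in WTD.

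Ano10 (BC002294) lies at chr9:122175874-122294444 and was read by 1 row of part II. It was lower in WTD than in every other line, and the other lines did not separate. Its log2 ratios were -0.13, 0.34 and 0.50 in D7E and -0.14, 0.19 and 0.46 in D7F. They were 0.28, -0.04 and 0.43 in WTA and -1.06, -1.15 and -0.83 in WTD, against -0.38, -0.19 and 0.07 in IM2. The WTD cultures lay below all other cultures, and the ranges of D7E, D7F, WTA and IM2 overlapped.

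The line means of Ano10 were 0.24 ± 0.33 in D7E, 0.17 ± 0.30 in D7F, 0.22 ± 0.24 in WTA, -1.01 ± 0.16 in WTD and -0.17 ± 0.23 in IM2 (SD, n = 3 each). WTD was at 0.557-fold of IM2 (-0.84, SE 0.21), while the differences of 0.40 in D7E, 0.33 in D7F and 0.39 in WTA became 0.07, 0.00 and 0.06 with IM2 signs turned. On part II, 1 array of each IM2 culture and both arrays of WTA culture 1 were poor. Without the poor arrays the differences of Ano10 from IM2 were 0.19 in D7E, 0.12 in D7F, 0.14 in WTA and -0.95 in WTD. D7F exceeded WTD 2.26-fold (1.18) and WTA exceeded WTD 2.35-fold (1.23), whereas D7E and WTA differed by 0.01 and D7E and D7F by 0.07. Part II carries no gene that fixes its direction as Pabpn1 does on part I. For 156 genes present on both parts, the mean difference of the transfected cultures from IM2 on 1 part had an r of 0.383 with that on the other, taken across genes, which are not independent replicates. The direction of Ano10 rests on that and on the dyes in the labels. So does that of every other gene read on part II, among them Scn7a, Lrrc26, Fxyd6, Clic1, Col1a2 and Mymk.

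The 4 genes differed in how far they set the lines apart. Of the 10 pairs of lines, the culture ranges did not overlap in 9 for Kcnmb4, 8 for Scn10a, 8 for Fxyd1 and 4 for Ano10, all 4 of these with WTD, against a median of 2 over 4910 genes. As many pairs or more were apart in 0.916% of genes for Kcnmb4, 3.18% for Scn10a and Fxyd1, and 35.0% for Ano10. A pair of lines without overlap was common among all genes. Between transfected lines their share was 19.6% for D7E and D7F, 21.3% for D7E and WTA, 15.4% for D7E and WTD, 17.2% for D7F and WTA, 18.2% for D7F and WTD and 24.6% for WTA and WTD. Against IM2 it was 39.4% for D7E, 33.5% for D7F, 34.2% for WTA and 38% for WTD. All cultures of D7E and WTA were apart from all cultures of D7F and WTD, as high against low, in 0 of the 4 genes and in 1.12% of the 4910. The highest line mean exceeded the lowest by 2.63 for Kcnmb4, 2.06 for Scn10a, 1.17 for Fxyd1 and 1.25 for Ano10, against a median of 0.46. Since the genes were chosen for these differences, the shares place them among the genes and support nothing further.

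All 4 genes were measured inside the limits on 30 of 30 arrays of their part, so each culture value is the mean of both dyes. Kcnmb4 was positive on 6 of 6 arrays in each of D7E, D7F and WTD, on 2 of 6 in WTA and on 1 of 6 in IM2. Scn10a was positive on 6 of 6 arrays in D7E and WTD and on 0 of 6 in D7F and WTA. Fxyd1 was positive on 0 of 6 arrays in D7E and 2 of 6 in D7F, and on 6 of 6 in both WTA and WTD. Ano10 was positive on 0 of 6 arrays in WTD and on 5 of 6 in WTA. In those lines with 6 or 0 positive arrays of 6, the sign was the same whichever dye carried the culture.

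The sizes depended on the dye more than the signs did. The 2 dyes gave the same sign in 14 of 15 cultures for Kcnmb4, 13 for Scn10a, 14 for Fxyd1 and 12 for Ano10. The median absolute gap between dyes was 0.40 for Kcnmb4, 0.22 for Scn10a, 0.15 for Fxyd1 and 0.16 for Ano10. The widest gap was in Kcnmb4 in D7E culture 3, which read 1.52 with the culture in Cy3 and 4.18 with it in Cy5, and D7E culture 2 was apart in the other direction, at 3.33 and 1.37. The D7E means of Kcnmb4 per dye were nevertheless close, 2.29 in Cy3 and 2.50 in Cy5. Scn10a in D7E culture 2 read 2.36 in Cy3 and 0.53 in Cy5. Lines that were apart with both dyes averaged could overlap in a single dye. For Kcnmb4 the lowest D7E and highest WTD culture were 1.52 and 1.92 in Cy3, and 1.37 and 2.41 in Cy5. For Scn10a they were 0.53 and 1.23 in Cy5, an overlap, and 1.13 and 0.94 in Cy3, with none. The counts of pairs of lines without overlap hold for the averages.

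**Figure D2:**
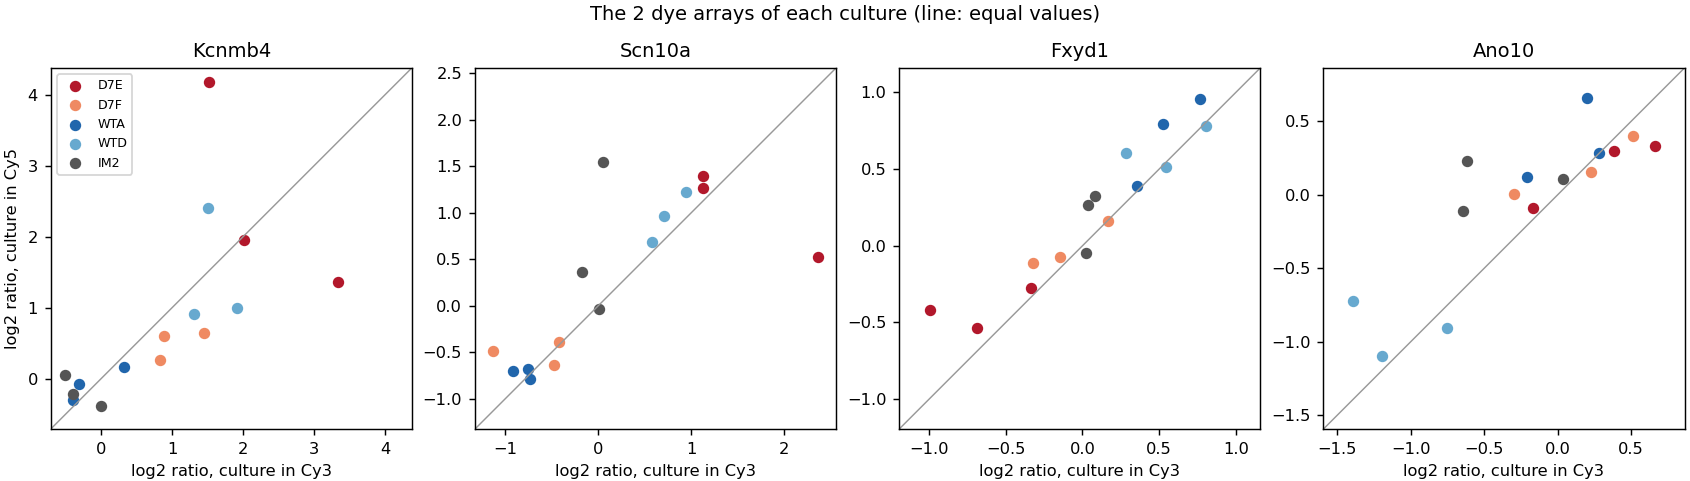
Log2 ratio of culture over reference with the culture in Cy3 (horizontal axis) against that with the culture in Cy5 (vertical axis), 1 point per culture and 1 panel per gene, coloured by line; the diagonal marks equal values. Most cultures lie near the diagonal, and the widest gap is Kcnmb4 in D7E culture 3, at 1.52 and 4.18.

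For each gene the 3 other genes with the most similar culture values were picked by Pearson's r over the cultures measured for both, at least 12 of them. These values share arrays and lines and are given as a description. Most like Kcnmb4 was Dcx, which encodes doublecortin, a microtubule-binding protein of migrating neurons (r = 0.949 over 14 cultures), with line means of 1.33 in D7E, 0.47 in D7F, -0.10 in WTA, 1.23 in WTD and 0.08 in IM2. It had the same order of the 3 higher lines at a smaller size. Pmaip1, which encodes the pro-apoptotic protein Noxa, followed (r = 0.908), and so did Tmbim4, a gene for a membrane protein of the Bax inhibitor family (r = 0.904), both over 15 cultures. Tmbim4 was read on part II, on arrays other than those of Kcnmb4.

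Most like Scn10a were Nptx1, which encodes a neuronal pentraxin (r = 0.889 over 14 cultures), Id3, an inhibitor of helix-loop-helix factors (r = 0.873 over 15), and Csrp3, a muscle LIM protein (r = 0.864 over 15). Id3 averaged 0.11 in D7E, -0.46 in D7F, -0.83 in WTA, 0.21 in WTD and 0.02 in IM2. Like Scn10a it had IM2 in the middle, with WTD and D7E above it and D7F and WTA below it.

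Most like Fxyd1 was Myl2, a regulatory myosin light chain of heart and slow muscle, read on part II (r = 0.863 over 14 cultures). Its line means were 0.28 in D7E, 0.91 in D7F, 2.20 in WTA, 2.40 in WTD and 0.30 in IM2, so D7E was near IM2, whereas Fxyd1 in D7E was below IM2. Snap25, which encodes a protein of vesicle fusion (r = 0.859), and Cox8b, which encodes a subunit of cytochrome c oxidase (r = 0.850), followed over 15 cultures. For Ano10 these were Fbxo5, an inhibitor of the anaphase-promoting complex (r = 0.875 over 15 cultures), the tetraspanin gene Tspan9 (r = 0.868 over 15) and Ptcd3, a gene of the mitochondrial ribosome (r = 0.855 over 14). Fbxo5 averaged -0.11 in D7E, -0.02 in D7F, 0.17 in WTA, -1.18 in WTD and 0.07 in IM2, and like Ano10 it was low in WTD alone.

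**Figure D3:**
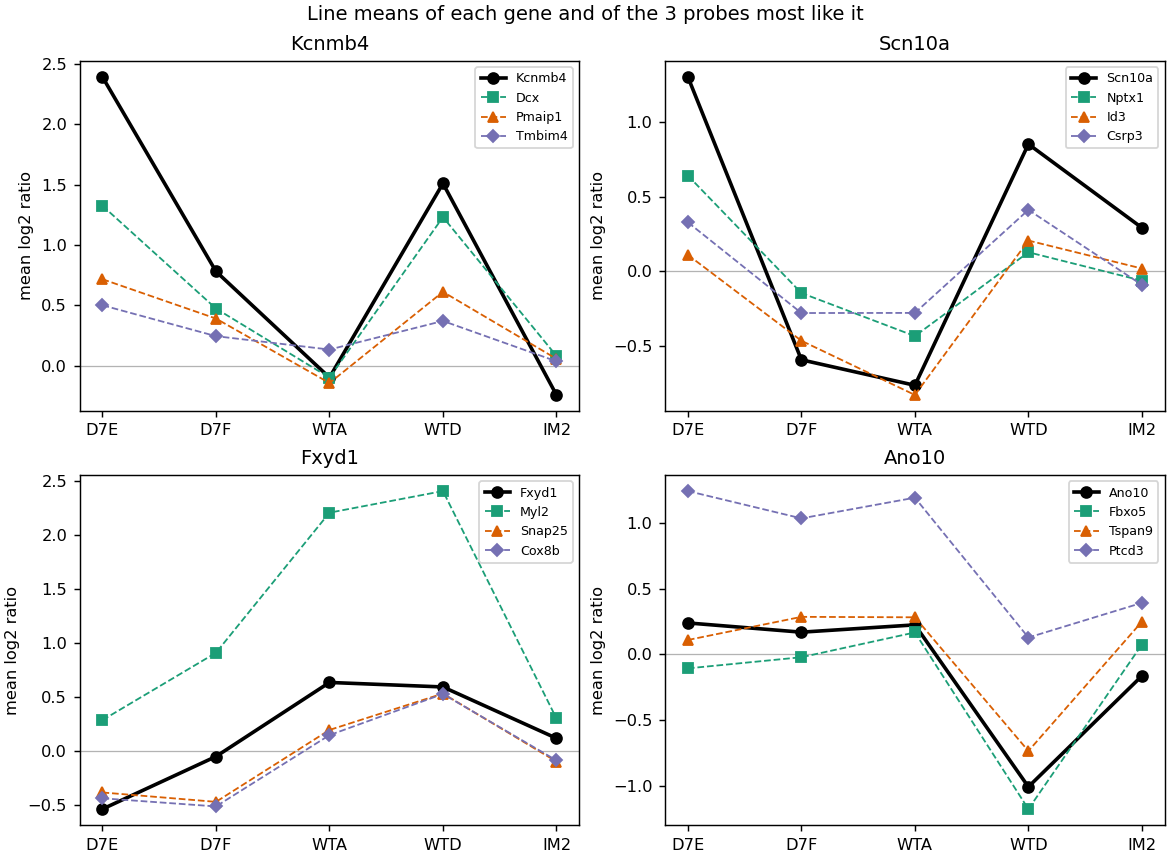
Mean log2 ratio (vertical axis) in the 5 lines (horizontal axis) of Kcnmb4, Scn10a, Fxyd1 and Ano10 (black) and of the 3 genes with the most similar culture values (colours). Dcx follows Kcnmb4 at a smaller size, Myl2 reaches 2.20 and 2.40 in the wild-type lines, and Fbxo5, like Ano10, is lowest in WTD.

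Other channel and pump genes were taken from 4 lists that hold 176 genes besides these 4, of which 115 had a probe and 51 could be tested. Tests were limma's, with Benjamini-Hochberg adjustment over all probes of both parts and a threshold of 0.05. Differences anywhere among the 5 lines were found for 8 of the 51 genes (15.7%; 19 at an unadjusted p under 0.05), against 10.5% of all genes. These 8 were 3 of 25 potassium channel genes, 1 of 6 sodium channel genes, 3 of 8 sodium pump genes and 1 of 12 anoctamin and chloride channel genes. Against IM2, 11 of the 51 genes changed in D7E, 6 higher and 5 lower, while 4.42% of all genes were higher and 7.93% lower. In D7F 2 changed, both lower (1.69% and 3.11% of all genes). In WTA 6 changed, 2 higher and 4 lower (5.69% and 6.71%), and in WTD 6 changed, 1 higher and 5 lower (2.12% and 4.98%). The median difference of the 51 genes was 0.05 in D7E, 0.10 in D7F, 0.14 in WTA and 0.23 in WTD, against 0.02, 0.04, 0.04 and 0.03 over all genes in the same order. With Cy5 arrays alone, 0 of 66 tested list genes passed in any of these comparisons (19 at an unadjusted p under 0.05 in D7E), so every channel and pump call given next was lost there by limma. Calls were fewer over all genes too in that setting, at 1.43% over the 5 lines, 3.44% in D7E, 0.821% in D7F, 2.39% in WTA and 1.8% in WTD.

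Among the relatives of Kcnmb4, the BK pore gene Kcnma1 averaged -0.04 in D7E, 0.18 in D7F, -1.05 in WTA, 0.06 in WTD and -1.12 in IM2, but with an SD of 1.55 in WTA and 1.12 in IM2 it did not pass (adjusted p = 0.515, 13 cultures). Lrrc26, which encodes another auxiliary subunit of the BK channel, differed among the lines (adjusted p = 0.0161). It averaged 0.00 ± 0.12 in D7E, -0.50 ± 0.19 in D7F, -0.65 ± 0.27 in WTA, 0.18 ± 0.15 in WTD and 0.00 ± 0.14 in IM2 (SD, n = 3 each). It fell by 0.65 in WTA (SE 0.17, adjusted p = 0.0215), and the D7F difference of -0.50 did not pass (adjusted p = 0.108). The Lrrc26 call over the 5 lines was lost in 4 of 25 alternatives. These were Cy5 arrays alone (adjusted p = 0.115), Cy3 arrays alone (0.136), 1 dye array enough (0.0806) and no poor arrays (0.0763). Lrrc26 was read on part II, so its direction has no more support than that of Ano10. The beta subunit genes Kcnmb1 and Kcnmb2 had probes with too few measured cultures.

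Of the other potassium channel genes, Kcna5, which encodes the voltage-gated channel Kv1.5, fell by 0.59 in D7E (SE 0.10, adjusted p = 0.00396) and by 0.40 in WTD (adjusted p = 0.0353), while D7F differed by -0.27 and WTA by -0.09, neither of which passed. Kcnj12, a gene for the inward rectifier Kir2.2, rose by 0.97 in D7E (adjusted p = 0.0120), by 0.71 in WTA (adjusted p = 0.0408) and by 1.06 in WTD (2.08-fold, adjusted p = 0.00896), with 2 cultures each in D7E, WTA and IM2. Abcc9, which encodes the sulfonylurea receptor SUR2 of the KATP channel, rose by 2.29 in D7E (SE 0.58, adjusted p = 0.0297), with 2 cultures each in D7E and IM2. The Abcc9 call was lost in 6 of 19 alternatives and the WTD call of Kcnj12 in 3 of 17, among them the fit that kept the limit values (adjusted p = 0.0580 and 0.255).

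Among the relatives of Scn10a, the sodium channel genes, Scn7a was lower than IM2 in all 4 transfected lines. It was read on part II, so its direction has no more support than that of Ano10. Scn7a encodes Nax, a channel that responds to sodium concentration rather than to voltage. It averaged -0.91 ± 0.13 in D7E, -0.89 ± 0.13 in D7F, -1.71 ± 0.63 in WTA and -0.94 ± 0.08 in WTD, against 0.07 ± 0.29 in IM2 (SD, n = 3 each). Against IM2 it fell by 0.98 in D7E (SE 0.25, adjusted p = 0.0217), and the D7F difference was -0.96 (adjusted p = 0.0445). In WTA the difference was -1.78 (adjusted p = 0.00074), and in WTD it was -1.01 (adjusted p = 0.0289). The WTD, D7E and D7F calls of Scn7a were near the threshold: leaving out 1 culture at a time, the D7F call was lost in 11 of 15 cases, the WTD call in 4 (WTD culture 1, 2 or 3, or IM2 culture 3; adjusted p = 0.0649 to 0.0901) and the D7E call in 2 (D7E culture 1 or IM2 culture 3). Over all alternatives the D7F call of Scn7a was lost in 17 of 25, the WTD call in 9, the D7E call in 6 and the WTA call in 1. The pattern of Scn7a differed from that of Scn10a, whose mean was higher than that of IM2 in D7E and WTD. In D7F and WTA both genes were lower than IM2. Scn11a, the gene for Nav1.9, another sodium channel of sensory neurons, rose by 0.48 in D7E (SE 0.14, adjusted p = 0.0405), though the test over all 5 lines did not pass (adjusted p = 0.154). Scn3b, an auxiliary beta subunit gene, averaged 1.37 ± 1.62 in WTD (SD, n = 3) and did not pass (adjusted p = 0.191). Scn1a, Scn2a, Scn3a, Scn9a and Scn2b had too few measured cultures.

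Of the other FXYD genes, Fxyd5 and Fxyd6 changed in some lines. Fxyd5, the gene of dysadherin, which binds the pump and also loosens cell contacts, fell by 1.78 in D7E (SE 0.24, adjusted p = 0.00119), by 1.47 in WTA (SE 0.22, adjusted p = 0.00186) and by 0.97 in WTD (adjusted p = 0.0232), and its D7F difference of -0.75 did not pass (adjusted p = 0.0797). The D7E mean rests on 2 cultures, and the WTD call was lost without WTD culture 1, 2 or 3 or IM2 culture 1 or 3 (adjusted p = 0.0530 to 0.0814). Over all alternatives the WTD call of Fxyd5 was lost in 10 of 22, among them limit values kept (adjusted p = 0.333), 1 dye array enough (adjusted p = 0.0846) and IM2 signs turned, where the difference was -0.58 (adjusted p = 0.129). Its WTA call was lost in 2 of 22, with limit values kept (adjusted p = 0.116) and with Cy5 arrays alone (adjusted p = 0.0838). Fxyd6, the gene of phosphohippolin, fell by 2.82 in D7F (SE 0.39, adjusted p = 0.00251), measured in 2 cultures of D7F that averaged -2.28 ± 1.14 (SD, n = 2), against 0.54 ± 0.24 in IM2 (SD, n = 3). With the values at the limit kept, that Fxyd6 difference was -1.09 and did not pass (adjusted p = 0.685). Fxyd6 was read on part II, so its direction has no more support than that of Ano10. Fxyd2, the gamma subunit gene of the kidney pump, did not pass (adjusted p = 0.859), and Fxyd3, Fxyd4 and Fxyd7 had too few measured cultures.

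The pump's beta subunits bring its catalytic subunit to the membrane. Atp1b1 rose by 0.71 in D7E (1.64-fold, SE 0.17, adjusted p = 0.0166), and averaged 0.65 ± 0.11 in D7E, -0.23 ± 0.07 in D7F, 0.40 ± 0.28 in WTA, 0.44 ± 0.01 in WTD and -0.06 ± 0.32 in IM2 (SD, n = 3 each). Atp1b3 rose by 0.73 in WTA (SE 0.19, adjusted p = 0.0266) and by 0.66 in D7E (adjusted p = 0.0413), while the test over all 5 lines did not pass (adjusted p = 0.0984). The WTA call of Atp1b3 was lost without WTA culture 1 or 3 or IM2 culture 1 or 3 (adjusted p = 0.0594 to 0.0757). Over all alternatives it was lost in 12 of 25, among them arrays centred (adjusted p = 0.0520), arrays centred and scaled (adjusted p = 0.153), limit values kept (adjusted p = 0.0576) and IM2 signs turned, where the difference was 0.43 (adjusted p = 0.150). Atp1b2 and Atp12a did not pass (adjusted p = 0.454 and 0.375).

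Among the chloride channel genes and the relatives of Ano10, Clic1, a chloride intracellular channel gene, was lower in D7E by a difference of -0.53, in WTA by -0.54 and in WTD by -0.61 (SE 0.14 each; adjusted p = 0.0254, 0.0226 and 0.0190 in that order). Its D7F difference of -0.45 did not pass (adjusted p = 0.0900). Like Ano10, Clic1 was read on part II, so its direction has no more support than that of Ano10. The test of Clic1 over the 5 lines passed narrowly (adjusted p = 0.0462) and was lost in 12 of the 15 fits that left out 1 culture (adjusted p = 0.0501 to 0.151). Over all alternatives it was lost in 21 of 25, among them the fit without the poor arrays (adjusted p = 0.426). Ano1, the calcium-activated chloride channel gene of the anoctamin family, did not pass (adjusted p = 0.823), and Ano9 had too few measured cultures.

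**Figure D4:**
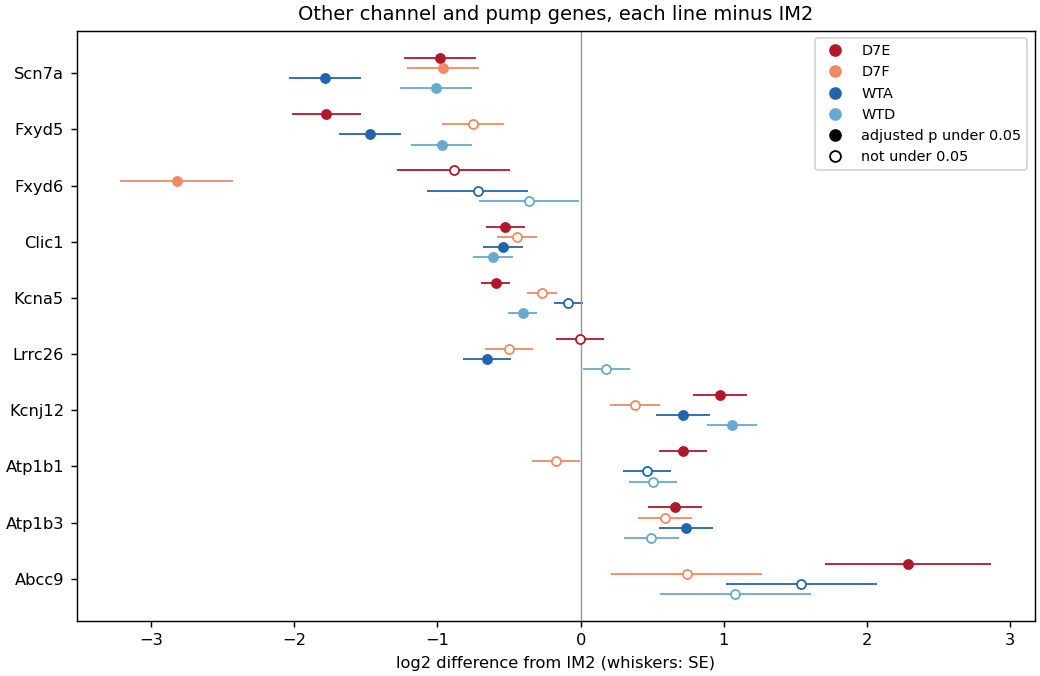
Log2 difference of each transfected line from IM2 (horizontal axis) for 10 channel and pump genes (vertical axis), with SE as whiskers; filled points passed the adjusted p threshold of 0.05 and open points did not. Scn7a, Fxyd5 and Clic1 lie below 0 in all 4 lines, Fxyd6 is lowest in D7F at -2.82, and Kcnj12 and Abcc9 lie above 0. Scn7a, Lrrc26, Fxyd6 and Clic1 were read on part II, whose direction no gene fixes.

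Markers of cell types that a line could hold also differed between lines, and their part in the results was not tested. The counts over the 5 lines stand against 10.5% of all genes. Of 22 muscle marker genes 0 differed over the 5 lines by limma (8 at an unadjusted p under 0.05), and their mean log2 ratio per culture was 0.36 to 0.38 in D7E, 0.29 to 0.44 in D7F, 0.33 to 0.55 in WTA and 0.27 to 0.44 in WTD, against -0.29 to 0.08 in IM2. Against IM2, 5 of the 22 rose in WTA (Actn3, Casq2, Tnnt3, Actn2 and Mymk) and 1 in D7E (Actn3). In D7F and in WTD 0 changed by limma (7 and 11 at an unadjusted p under 0.05). Of all genes, 5.69% were higher and 6.71% lower in WTA, and 4.42% and 7.93% in D7E. In D7F 1.69% were higher and 3.11% lower, and in WTD 2.12% and 4.98%. Of 7 fibroblast marker genes 5 differed, and their mean per culture was -0.86 to -0.60 in D7E, -0.61 to -0.50 in D7F, -0.88 to -0.21 in WTA and -0.88 to -0.61 in WTD, against -0.22 to 0.14 in IM2. These means join opposite changes: Col1a1, Col1a2 and Col3a1, which encode fibrillar collagens, fell in all 4 transfected lines and Fbln2 fell in WTA and WTD, whereas Dpt, the gene of dermatopontin, rose by 1.71 in WTA (adjusted p = 0.00102). Of 8 neural and Schwann cell marker genes 1 differed, Snap25, and their mean per culture was -0.35 to 0.10 in D7E, -0.12 to 0.15 in D7F, -0.24 to 0.48 in WTA and 0.03 to 0.08 in WTD, against -0.43 to 0.01 in IM2. Of 6 markers of other cell types 1 differed, and their mean per culture was -0.21 to 0.13 in D7E, -0.06 to 0.05 in D7F, -0.36 to 0.12 in WTA and -0.04 to 0.15 in WTD, against -0.20 to 0.07 in IM2. Ratios to a reference cannot show whether a marker is absent. Fewer cells of a type and less RNA per cell cannot be told apart in these cultures.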

How the data were processed

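RNA of 15 cultures was measured on 60 2-colour arrays. The deposited values are log ratios, and the sources used here state neither their base nor how they were made. They were taken as log10, since the deposited values stop exactly at -2 and 2 (a ratio of 100 in base 10 and of 4 in base 2), and were multiplied by 3.3219 to give log2. Values at these limits (7.71% on part I, 10.5% on part II) were dropped. No sign was turned. Between arrays of 1 dye the lowest correlation was -0.24 (IM2 culture 1 with D7E culture 3, part I), and -0.48 with limit values kept. The dyes are stated in the labels.

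Rows with identical values were collapsed (16416 rows to 7600 on part I, 15552 to 14326 on part II) and human control probes left out. Both dyes were averaged per culture. Probes with at least 2 cultures in every line were tested, 9719 for 8107 genes, with the tested probe measured in most cultures standing for a gene. Each part was fitted with limma 3.58.1 (R 4.3.3; lmFit, eBayes), all 5 lines in 1 model, with Benjamini-Hochberg adjustment over both parts and a threshold of 0.05. The scripts were tested on simulated data.

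The 4 genes and all lists were chosen with earlier results of these data known. Named besides them were the 3 genes most like each, per list up to 5 genes with the smallest p, per line up to 3 with the largest difference, close relatives, and Pabpn1. Gene names and coordinates are RefSeq's on GRCm38.p6. Alternatives kept the limit values, centred or scaled the arrays, turned the IM2 sign, used 1 dye, left out poor arrays, required all cultures, blocked on culture number, or left out 1 culture.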

Additional observations from a re-analysis of the deposited data

Results flagged for a closer look

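For 5 genes the order of the lines was opposite in the 2 genotypes: every culture moved one way in the mutant lines and the other way in the wild-type lines. The difference between these differences was not tested. Kcnmb4 in the high minus the low line differed by 1.61 in the mutant lines and by -1.61 in the wild-type lines. The mutant minus the wild-type line differed for Kcnmb4 by 2.49 at the high level and by -0.73 at the low level. For Scn10a, high minus low was 1.89 in the mutant lines and -1.61 in the wild-type lines, and mutant minus wild-type was 2.06 at the high level and -1.44 at the low level. Kcnmb4 and Scn10a were chosen for differing between lines. Lrrc26, Kcnj12 and Kcna5 were named for their small p in the test over these same lines. High and low are the words of the labels, and measured Pabpn1 differed between the 2 lines of each level.

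For Lrrc26, high minus low was 0.49 in the mutant lines and -0.83 in the wild-type lines, and mutant minus wild-type was 0.65 at the high level and -0.68 at the low level. For Kcnj12 these values were 0.59 and -0.34, then 0.26 and -0.68. Kcna5 ran the other way, at -0.32 in the mutant lines and 0.32 in the wild-type lines, with mutant minus wild-type at -0.51 at the high level and 0.13 at the low level. Of the 4910 genes measured in all cultures, 6.56% had high against low opposite in the 2 genotypes with no overlap. All genes flagged here were picked for differing between these lines, so that share supports nothing about their number. Kcnj12 had 2 cultures each in D7E, WTA and IM2 and is not among these 4910.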

How the results depend on the processing

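The number of arrays, with 3 cultures a line, and the loss of values at the limits set the precision, and many list genes could not be tested. The highest line was the same in 24 of 24 alternatives for Kcnmb4 and Scn10a, 21 for Fxyd1 and 17 for Ano10, and the lowest in 24 of 24 for Fxyd1 and Ano10, 22 for Kcnmb4 (WTA in place of IM2 with IM2 signs turned or without WTA culture 2) and 23 for Scn10a (D7F in place of WTA with arrays centred and scaled). The highest minus lowest line mean moved by more than the spread between cultures for Scn10a, to 1.78 with arrays centred and scaled, 1.79 with Cy5 arrays alone and 2.33 with Cy3 arrays alone. Leaving out 1 culture at a time, it ranged from 2.41 to 2.84 for Kcnmb4, 1.99 to 2.11 for Scn10a, 1.09 to 1.30 for Fxyd1 and 1.18 to 1.43 for Ano10.

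Counts of the channel and pump genes that passed depended more on the settings, which also changed how many were tested. With limit values kept (78 tested), 4 genes passed over the 5 lines, 5 in D7E, 0 in D7F (11 at an unadjusted p under 0.05), 1 in WTA and 1 in WTD by limma. With Cy5 arrays alone (66 tested), 0 passed in each of the 5 comparisons (13 over the lines, 19 in D7E, 12 in D7F, 18 in WTA and 13 in WTD at an unadjusted p under 0.05). With Cy3 arrays alone (70 tested), 5 passed over the lines, 5 in D7E, 1 in D7F and 2 in WTA. With 1 dye array enough (99 tested), 2 passed over the lines, 4 in D7E, 1 in D7F, 2 in WTA and 0 in WTD (13 unadjusted). Without the 9 poor arrays, 5 passed over the lines, 4 in D7E, 1 in D7F, 2 in WTA and 0 in WTD (9 unadjusted). In WTA 2 passed with arrays centred and 2 with arrays centred and scaled. With the IM2 sign turned, 1 passed in D7F and 3 in WTD. The median of all genes moved by over 0.1 with limit values kept (0.11 in WTA), with Cy5 arrays alone (0.10 in WTD) and with Cy3 arrays alone (-0.11 in D7E, D7F and WTD). Over all genes, calls over the 5 lines went down as well, to 3.96% with limit values kept, 1.43% with Cy5 arrays alone, 3.17% with Cy3 arrays alone, 2.37% with 1 dye array enough and 3.77% without the poor arrays, against 10.5% as reported.

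Leaving out 1 culture at a time gave 4 to 11 genes over the lines, 4 to 13 in D7E, 0 to 4 in D7F, 2 to 11 in WTA and 1 to 7 in WTD. The count moved by over 1.5 times over the lines without D7E culture 1 (4) or 3 (5), in D7E without D7E culture 1 (5) or 3 (4) or IM2 culture 1 (5), in WTA without WTA culture 1 (2) or IM2 culture 2 (11), and in WTD without any of its own cultures (3, 2 and 1), D7E culture 1 (3) or IM2 culture 1 (1) or 3 (2). In D7F it was 4 without WTA culture 2 or IM2 culture 2, 0 without D7E culture 1 or D7F culture 2 (9 and 8 unadjusted), and 1 without WTD culture 2 or 3, D7E culture 2 or 3, D7F culture 1 or 3 or IM2 culture 3. Fewer genes could be tested in each of these fits.

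With the culture number as a replicate block, 7 genes passed over the lines, 8 in D7E, 2 in D7F, 5 in WTA and 4 in WTD. Cultures of equal number had correlations of -0.18 to 0.29 (part I) and of -0.16 to 0.41 (part II), and 6 and 8 of 15 cultures correlated best with their own number. The count to expect without pairing was not worked out, so these values do not settle whether equal numbers mark pairs. The main fit did not take the numbers as pairs.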

Other observations

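A row of part II reads Kcnmb4os1, an antisense transcript of the Kcnmb4 locus. It was inside the limits on 19 of 30 arrays, at a limit on 3 and missing on 8, and was not tested.

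Snap25 and Cox8b, both among the genes most like Fxyd1, had nearly equal line means, which differed by at most 0.054. Snap25 averaged -0.39 in D7E, -0.48 in D7F, 0.19 in WTA, 0.53 in WTD and -0.10 in IM2, and Cox8b averaged -0.44 in D7E, -0.52 in D7F, 0.14 in WTA, 0.52 in WTD and -0.09 in IM2.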
